A study of Mus musculus with 12 samples.

Results

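The miR-23, miR-27 and miR-24 microRNAs come from a pair of paralogous clusters, miR-23b/27b/24-1 and miR-23a/27a/24-2, and every row of the mouse liver table named for an arm of one of them was taken as a member. The names cover 11 arms, of which 9 had a row among the 386 microRNA rows of the table: 5 from the 3p side (miR-27b-3p, miR-27a-3p, miR-23b-3p, miR-23a-3p and miR-24-3p) and 4 from the 5p side (miR-27b-5p, miR-27a-5p, miR-24-1-5p and miR-24-2-5p). All 9 were tested, with no filter on low values. The other 2 arms, miR-23a-5p and miR-23b-5p, had no row.

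The livers came from 12 fasted wild-type C57BL/6 males aged 84 days (12 weeks), in 4 diet groups of 3 libraries each, named by the mother's diet and then the son's. OO sons ate the obesogenic diet and had mothers on it. CO sons ate the obesogenic diet and had control-fed mothers. OC sons ate control chow and had obesogenic-fed mothers, and CC sons ate control chow and had control-fed mothers. The control chow, RM1, held 7% simple carbohydrates and 3% lipids by weight. The obesogenic diet held 10% and 20% and came with sweetened condensed milk. Mothers stayed on their diet until weaning, litters were set to 6 pups on day 3, and sons were weaned onto their own diet on day 21. The labels do not state the mother or litter of a library. OO replicate 3 carries a name with the same number in it as that of OC replicate 2, and what the number marks is not given, so these mice may not be independent. The p-values measure only the spread between these 12 libraries.

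A microRNA hairpin is cut into a 5p and a 3p arm, and the arm loaded into an Argonaute protein pairs with messenger RNAs through its seed, bases 2 to 8, and lowers their output. The hairpins of a cluster are cut from a shared primary transcript. In mouse liver, miR-27b targets transcripts of lipid metabolism such as Gpam, miR-24 targets Insig1, a brake on sterol and fatty acid synthesis, and the miR-23b cluster represses Smad transcripts of TGF-beta signalling. The miR-23a cluster is known for its abundance in blood vessels and blood cells as well as in liver.

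Mature sequences from RefSeq (GRCm38.p6) were found for 8 of the 9 members. They are shown because the pairs differ so little that a short read can separate them only at a few bases. Capitals mark the seed.
miR-27b-3p: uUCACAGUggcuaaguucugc
miR-27a-3p: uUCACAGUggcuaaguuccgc
miR-23a-3p: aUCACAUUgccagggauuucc
miR-24-3p: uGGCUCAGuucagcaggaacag
miR-24-1-5p: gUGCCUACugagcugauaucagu
miR-24-2-5p: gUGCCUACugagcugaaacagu
miR-27b-5p: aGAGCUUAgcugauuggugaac
miR-27a-5p: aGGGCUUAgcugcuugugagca
Positions are counted from 1 at the 5′ end. Between miR-27a-3p and miR-27b-3p the single difference over 21 bases is C19U, outside the seed, so both carry the seed UCACAGU. The seed of miR-23a-3p, UCACAUU, shares its first 5 letters with that of miR-27a-3p, and the change from miR-27a-3p to miR-23a-3p within the seed is G7U. The mature miR-24-3p is the same from both miR-24 hairpins, so its row cannot be divided between the clusters. The 5p arms miR-24-2-5p and miR-24-1-5p share their first 16 bases and with them the seed UGCCUAC. Among the 322 rows of the table with a sequence, no row outside the clusters carried the seed of any of these 8 members.

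In the GRCm38.p6 genome, the b cluster spans 792 bases at chr13:63300484-63301275 on the plus strand. It lies inside 2010111I01Rik, a protein-coding gene on the same strand, with the Mir23b hairpin in an intron and the Mir27b and Mir24-1 hairpins overlapping an annotated exon. On the minus strand the same bases fall in an intron of Fancc, a gene of the Fanconi anaemia DNA repair pathway. The a cluster spans 404 bases at chr8:84208518-84208921 on the plus strand, outside protein-coding genes. Its Mir24-2 hairpin overlaps an exon of Gm26532, a long intergenic non-coding RNA, and the nearest protein-coding gene, Zswim4, lies 1757 bases from it.

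Levels are the deposited CPM, counts per 1000000 reads, which are a share of a library. Library depth, inferred from the smallest step between values and given in units of 1000000 reads, was 5.45 to 22.2 with a median of 13.2. In those units it averaged 16.7 ± 4.80 in sons of obesogenic-fed mothers and 10.6 ± 3.78 in sons of control-fed mothers (SD, n = 6 each). CO replicate 3 had the fewest reads, and its median row lay 0.20 below its mean over all libraries on the log2 scale. The first letters of the library names also split fully with the mother's diet, so the mother's diet and any handling that goes with those names cannot be told apart. The tissue label was checked on hepatocyte microRNAs (miR-122, miR-192 and others), of which 11 of 11 were measured and together held 352520 to 425073 CPM in each library.

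miR-27b-3p dominated the clusters. It averaged 25455 ± 1730 CPM (SD, n = 12), rank 10 of 386 rows, and held 90.3% ± 1.07 (SD, n = 12) of the members' summed CPM. Next came miR-27a-3p at 1014 ± 98.3, miR-23b-3p at 774 ± 122, miR-24-3p at 453 ± 34.6, miR-23a-3p at 277 ± 31.2 and miR-24-2-5p at 182 ± 17.3 CPM (SD, n = 12 each). The remaining 5p arms were far lower, with miR-27b-5p at 25.8 ± 2.91, miR-24-1-5p at 5.32 ± 0.837 and miR-27a-5p at 3.71 ± 0.890 CPM (SD, n = 12 each). All members together made up 2.79% ± 0.167 of the summed values (SD, n = 12).

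Most steps in that order held in every library. miR-27b-3p exceeded miR-27a-3p in 12 of 12 libraries with ranges far apart. Across libraries the ranges of miR-27a-3p and miR-23b-3p overlapped, as did those of miR-23a-3p and miR-24-2-5p, although within each of the 12 libraries the first of each pair was the higher. For the lowest pair, miR-24-1-5p was above miR-27a-5p in 10 of 12 libraries, so those neighbours were not separated. The members are 21 to 23 bases long, as far as they have a sequence, so no correction for length was needed, but library preparation can favour some small RNAs over others and a ratio between microRNAs is one of reads.

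**Figure D1:**
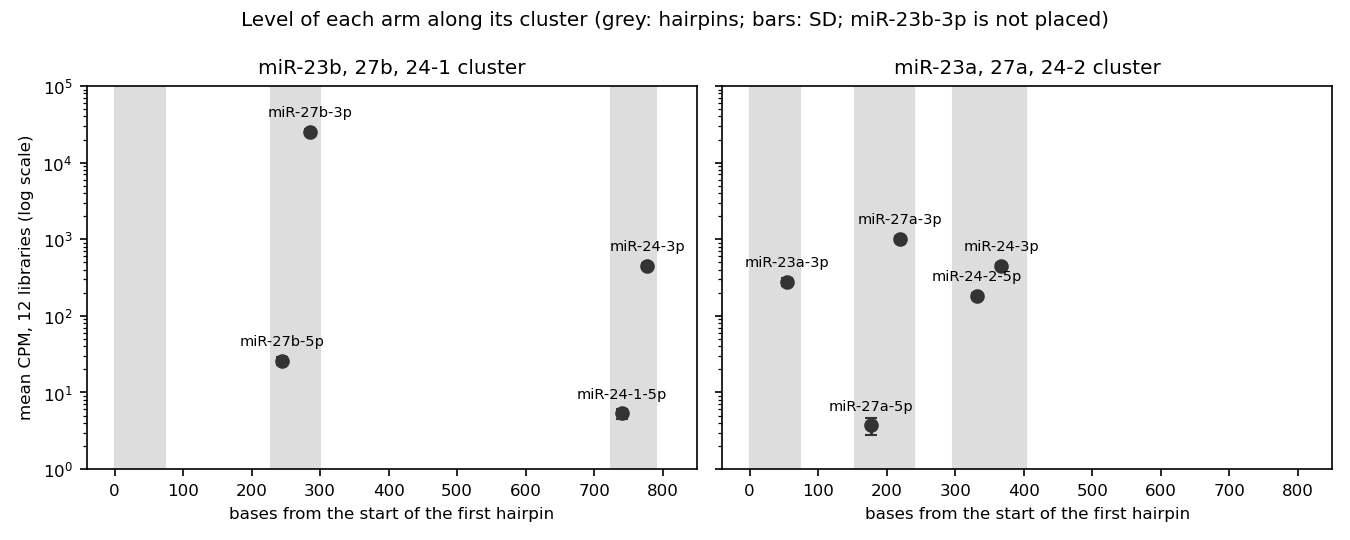
Mean CPM of each measured arm (vertical axis, log scale; bars are the SD over 12 libraries) against its distance in bases from the start of the first hairpin of its cluster; grey bands are hairpins, miR-23b-3p is not drawn and the single miR-24-3p row is drawn in both clusters. miR-27b-3p, at 25455 CPM, stood above every other arm, and within the miR-27 hairpins the 3p arm was far above the 5p arm.

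Arms of a hairpin were used very unequally in the miR-27 hairpins and less so in miR-24. The 5p arm made up 0.101% ± 0.0103 of miR-27b reads and 0.368% ± 0.0966 of miR-27a reads (SD, n = 12 each). Pooled over both hairpins, the 5p rows of miR-24 held 29.3% ± 2.48 of all miR-24 reads (SD, n = 12). Nearly all of that 5p signal came from the a cluster: miR-24-2-5p held 97.1% ± 0.514 of the reads of both miR-24 5p rows (SD, n = 12).

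Between paralogues the picture differed by family. miR-27b-3p was 25.4 ± 3.41 times miR-27a-3p, whereas miR-23b-3p was only 2.80 ± 0.313 times miR-23a-3p (SD, n = 12 each). Within the b cluster miR-27b-3p was 33.6 ± 5.28 times miR-23b-3p, and within the a cluster miR-27a-3p was 3.67 ± 0.203 times miR-23a-3p (SD, n = 12 each). The last ratio ranged from 3.32 to 4.13 over the 12 libraries, the narrowest relative spread of these 4 ratios.

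miR-27b-3p and miR-24-3p were among the steadier rows of the table. The coefficient of variation (SD over mean) of miR-27b-3p over the 12 libraries was 6.80% and that of miR-24-3p 7.64%, against a median of 14.0% for the 140 rows that averaged 100 CPM or more. Only 4.29% of those rows varied less than miR-27b-3p and 8.57% less than miR-24-3p. The share was 16.4% for miR-24-2-5p, 17.9% for miR-27a-3p and 27.9% for miR-23a-3p. The most variable abundant member was miR-23b-3p, with 15.7%, and 59.3% of rows varied less. By the same inferred depth, the lowest library held 3992 reads of miR-27a-3p and 1138 of miR-23a-3p, so counting error there is small. It is larger for miR-27a-5p (16 to 88 inferred reads a library) and miR-24-1-5p (26 to 130).

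The first question was whether the son's own diet moved the clusters. None of the 9 members passed the test, which was limma on log2(CPM + 1) with Benjamini-Hochberg adjustment over all 386 rows and an adjusted p under 0.05. With maternal diets averaged, 3 rows of the table passed (0.777%), all lower in obesogenic-fed sons, and none was a member. At an unadjusted p under 0.05 there were 57 rows, 1 of them a member. No count model was run.

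For the dominant arm, the 6 obesogenic-fed sons ranged from 23884 to 29079 CPM and the 6 control-fed sons from 23979 to 25811 CPM, so the groups overlapped. In OO livers miR-27b-3p stood at 25408, 23884 and 29079 CPM, in CO livers at 27907, 27149 and 24119 CPM, in OC livers at 24274, 25811 and 25324 CPM, and in CC livers at 24069, 24454 and 23979 CPM. The CC and OC values lay close together, while the obesogenic-fed groups each held both a low and a high library. The log2 difference for the son's diet was 0.09, with a 95% interval of -0.05 to 0.22 and an adjusted p of 0.557 (limma). Without OO replicate 3 it was 0.05 (adjusted p = 0.761, limma).

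miR-24-2-5p, the 5p arm of the a-cluster miR-24 hairpin, had the smallest p of the members for the son's diet. It measured 168.1, 188.5 and 171.3 CPM in OO livers and 169.0, 164.98 and 157.1 CPM in CO livers, against 192.2, 171.0 and 193.8 CPM in OC livers and 217.5, 194.6 and 191.5 CPM in CC livers. The obesogenic-fed sons tended to the lower end, yet OO and OC overlapped. The log2 difference was -0.19 (SE 0.0776), with an adjusted p of 0.315 (limma).

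Over all 9 members the log2 differences for the son's diet ran from -0.19 to 0.15, with a median of 0.00 against -0.02 for all rows. All 9 intervals lay within a log2 difference of 0.5 in either direction, as they did for 59.3% of all rows. Differences inside those intervals remain compatible with these libraries. The interval of miR-24-2-5p, -0.36 to -0.02, lay below 0, but this arm did not pass after adjustment over all rows. Obesogenic-fed and control-fed sons did not separate without overlap for any member, against 2.59% of all rows.

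**Figure D2:**
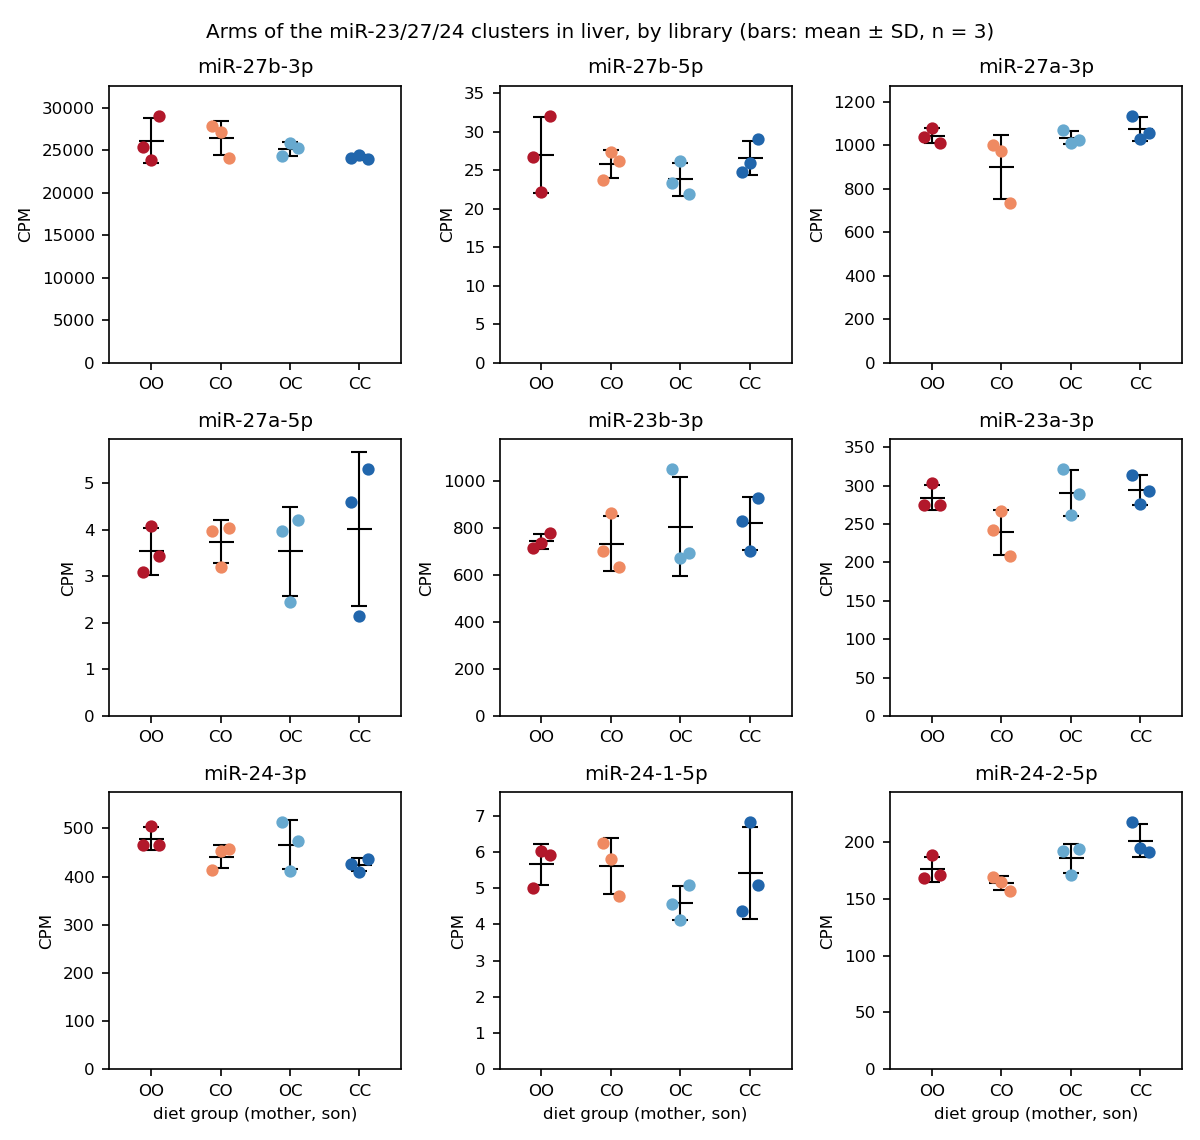
CPM of each member (vertical axes from 0) in the 3 livers of each group (OO, CO, OC and CC, mother's diet then son's diet); points are libraries and bars the mean ± SD. The libraries of miR-27b-3p overlapped between every pair of groups, while miR-27a-3p, miR-23a-3p and miR-24-2-5p lay lower in CO than in CC livers without overlap and without passing the test.

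The son's diet was also compared within each mother's diet. In sons of control-fed mothers (CO against CC), 3 of 9 members were lower in CO without overlap and none was higher, against 22.0% of all rows without overlap and 16.3% lower without overlap. These 3 members, miR-27a-3p, miR-23a-3p and miR-24-2-5p, are all from the a cluster. The remaining measured a-cluster arm, miR-27a-5p, overlapped, with a log2 difference of -0.02 (adjusted p = 0.999, limma). The shared miR-24-3p also overlapped, with a difference of 0.06 (adjusted p = 0.856, limma). The test called 0 members and 0.777% of rows, and 2 of the 63 rows with an unadjusted p under 0.05 were members.

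miR-27a-3p, which shares the miR-27 seed, measured 999, 974 and 733 CPM in CO livers, against 1136, 1030 and 1058 CPM in CC livers. Every CO value was below every CC value, and CO replicate 3 was the lowest of the 12 libraries. The log2 difference was -0.26 (SE 0.121, adjusted p = 0.304, limma), and without CO replicate 3 it was -0.12 (adjusted p = 0.527).

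miR-23a-3p, whose hairpin lies first in the a cluster, measured 242, 267 and 209 CPM in CO livers, against 315, 276 and 293 CPM in CC livers. The groups did not overlap, and CO replicate 3 was again the lowest library. Its log2 difference was -0.30 (SE 0.126, adjusted p = 0.255, limma).

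For miR-24-2-5p, with the CPM values given above, the log2 difference between CO and CC livers was -0.29 (SE 0.110, adjusted p = 0.213, limma). The other 6 members overlapped between CO and CC. Of these, miR-23b-3p, the b-cluster paralogue of miR-23a-3p, measured 699, 861 and 634 CPM in CO livers and 829, 701 and 925 CPM in CC livers, a log2 difference of -0.16 (adjusted p = 0.708, limma). miR-27b-3p differed by 0.12 in the other direction, with a 95% interval of -0.07 to 0.32 (adjusted p = 0.544, limma). With median-of-ratios scaling that value was 0.21 (adjusted p = 0.221, limma), and without CO replicate 3 or CO replicate 1 it was 0.19 or 0.08.

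Other lists were also measured in the CO livers. The endothelial microRNA miR-126-5p measured 16971, 18755 and 12324 CPM in CO livers, against 22227, 19963 and 20701 CPM in CC livers, and its partner arm miR-126-3p was likewise lower in CO without overlap. Of the 6 names on the endothelial list these 2 had a row, and their sum was 15584 to 22984 CPM in CO livers and 24304 to 27100 CPM in CC livers. The hepatocyte list summed to 387717 to 425073 CPM in CO livers and 372645 to 376000 CPM in CC livers. Of its 11 rows, however, 6 were higher and 5 lower in CO livers, with a median log2 difference of 0.01. The leukocyte list, with 7 of 9 names measured, summed to 2380 to 3087 CPM in CO livers and 2870 to 3562 CPM in CC livers, which overlap. Of those 7 rows, 3 were higher and 4 lower in CO livers. The erythroid list, with 4 of 6 names measured, summed to 4252 to 8999 CPM in CO livers and 2862 to 4255 CPM in CC livers, which also overlap. The part of these lists in the a-cluster values was not tested. With log2 depth as a covariate, the log2 differences between CO and CC livers were -0.28 for miR-27a-3p, -0.32 for miR-23a-3p and -0.30 for miR-24-2-5p, with adjusted p-values of 0.0776, 0.0776 and 0.0971 (limma). These were the lowest adjusted p-values of any alternative. The median log2 difference of all rows between CO and CC livers was -0.05, and 0.02 after median-of-ratios scaling. That scaling, with a factor of 0.86 for CO replicate 3, lifted the CO values on average and made the differences of these 3 arms smaller. Over all alternatives miR-24-2-5p ran from -0.33 to -0.20 (adjusted p up to 0.504, limma). miR-23a-3p ran from -0.39 to -0.20 and miR-27a-3p from -0.35 to 0.11 (adjusted p up to 0.576 for each, limma). The highest value of each of these 2 arms is that of its sum with the b-cluster paralogue. In whole liver, fewer cells of a type and less of a microRNA per cell cannot be told apart.

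In sons of obesogenic-fed mothers (OO against OC), all 9 members overlapped between the groups, against 15.5% of rows without overlap. The test called 0 members and 0.518% of rows, and none of the 28 rows with an unadjusted p under 0.05 was a member. miR-27a-3p measured 1040, 1082 and 1010 CPM in OO livers, against 1068, 1012 and 1024 CPM in OC livers, a log2 difference of 0.01 with a 95% interval of -0.25 to 0.28 (adjusted p = 0.982, limma). miR-23a-3p measured 274, 303 and 275 CPM in OO livers and 322, 262 and 289 CPM in OC livers. For both arms the groups covered much the same range.

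The difference between these branches, OO minus OC set against CO minus CC, was tested as an interaction. It called 0 members and 0% of rows, and none of the 15 rows with an unadjusted p under 0.05 was a member. The largest member value was 0.28 for miR-27a-3p (95% interval -0.10 to 0.65, adjusted p = 0.773, limma), followed by 0.27 for miR-23a-3p. The median over all rows was 0.13. After median-of-ratios scaling that median was 0.01 and the miR-27a-3p value 0.15.

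**Figure D3:**
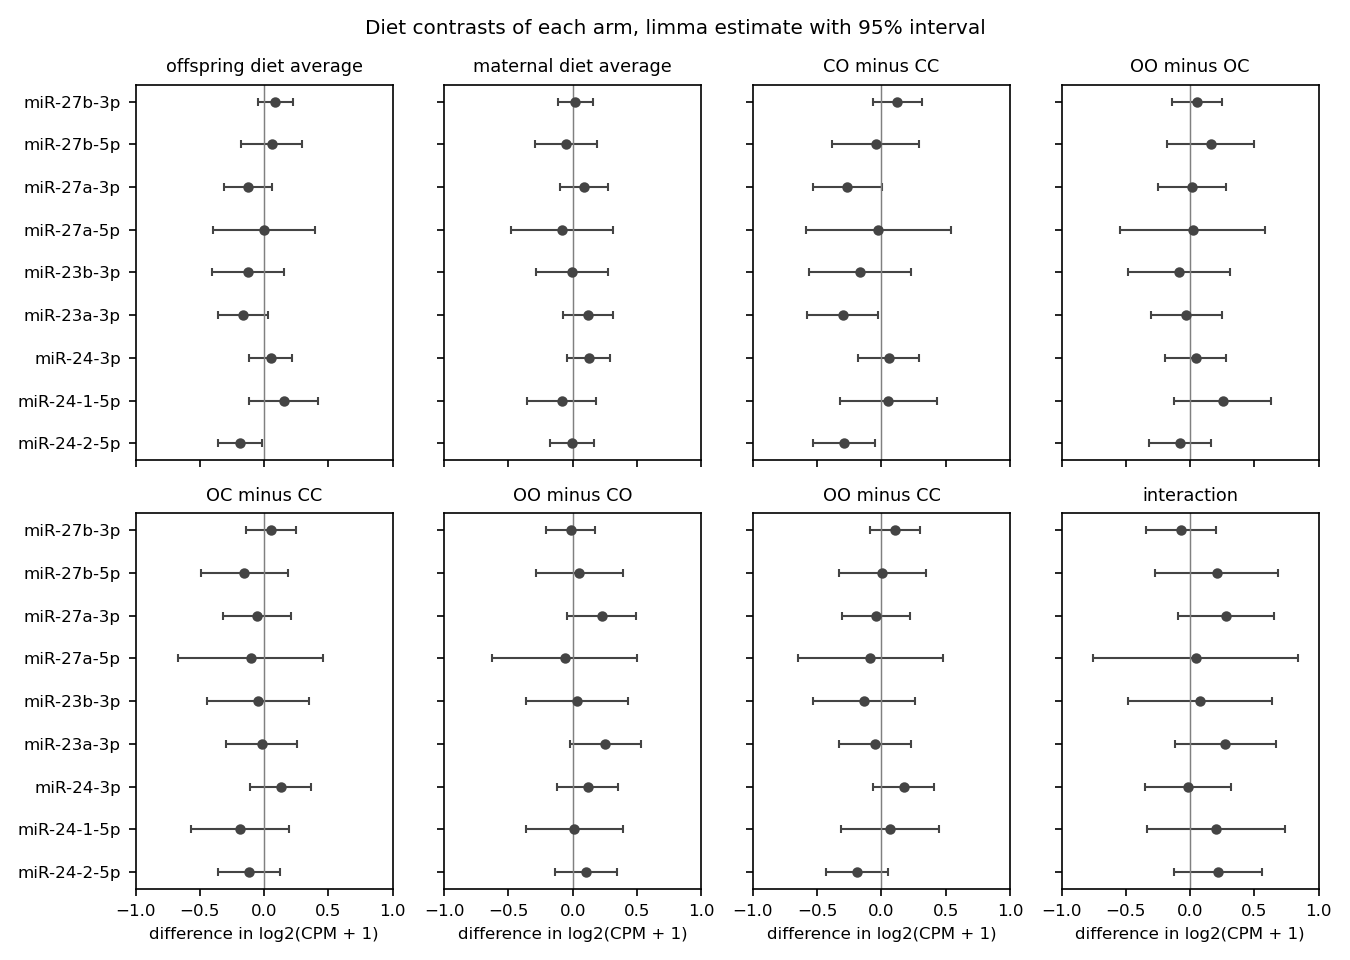
Log2 difference of each member (horizontal axes, log2(CPM + 1); points are limma estimates and bars 95% intervals) in the 8 diet contrasts, each written as the first group minus the second; the son's and mother's averages are obesogenic minus control and the interaction is (OO minus OC) minus (CO minus CC). No member passed at an adjusted p under 0.05, and the estimates of miR-27b-3p lay between -0.07 and 0.12 in all 8.

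The next question was whether the mother's diet left a mark on the clusters. With the son's diets averaged, the test called 0 of 9 members and 0% of all rows, and 27 rows, none of them a member, had an unadjusted p under 0.05. No member separated sons of obesogenic-fed from sons of control-fed mothers without overlap, against 0.777% of all rows. Member log2 differences ran from -0.09 for miR-24-1-5p to 0.12 for miR-24-3p, with a median of -0.01 against 0.08 for all rows.

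miR-24-3p, the arm shared by both clusters, measured 466, 505 and 465 CPM in OO livers and 513, 412 and 474 CPM in OC livers, against 414, 454 and 456 CPM in CO livers and 426, 410 and 437 CPM in CC livers. Values in sons of obesogenic-fed mothers were mostly the higher, with OC replicate 2 down among the sons of control-fed mothers. The log2 difference for the mother's diet was 0.12, with a 95% interval of -0.04 to 0.29 (adjusted p = 0.665, limma). For miR-27b-3p it was 0.02, with an interval of -0.12 to 0.16. After median-of-ratios scaling, which brought the median of all rows to 0.02, the values were 0.05 for miR-24-3p and -0.05 for miR-27b-3p, whose direction turned.

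In control-fed sons (OC against CC), 0 members and 0% of rows were called, 4 rows had an unadjusted p under 0.05, and no member was without overlap, against 8.81% of rows. miR-23b-3p measured 1050, 672 and 693 CPM in OC livers and 829, 701 and 925 CPM in CC livers. OC replicate 1 was the highest of the 12 libraries and OC replicate 2 the second lowest, so the OC range enclosed the CC range.

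In obesogenic-fed sons (OO against CO), 3 members were higher in OO without overlap, miR-27a-3p, miR-23a-3p and miR-24-3p, against 19.2% of rows without overlap and 16.3% higher without overlap. The test called 0 members and 0% of rows, with 47 rows at an unadjusted p under 0.05 and no member among them. The log2 difference was 0.22 for miR-27a-3p (adjusted p = 0.384) and 0.25 for miR-23a-3p (adjusted p = 0.371, limma). The median of all rows was 0.13 in this comparison and 0.02 after median-of-ratios scaling, under which the values were 0.09 for miR-27a-3p, 0.12 for miR-23a-3p and -0.02 for miR-24-3p, whose direction turned. Without CO replicate 3 they were 0.08 for miR-27a-3p and 0.16 for miR-23a-3p. The endothelial sum was 24420 to 28052 CPM in OO livers and 15584 to 22984 CPM in CO livers, and its part in these values was not tested. This comparison and that of CO with CC share the CO libraries.

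Where both generations ate the obesogenic diet (OO against CC), 0 members and 0.259% of rows were called, with 47 rows at an unadjusted p under 0.05 and no member among them. Without overlap, miR-24-3p was higher and miR-24-2-5p lower in OO livers, 2 of 9 members against 22.0% of rows. Their log2 differences were 0.17 (adjusted p = 0.529) and -0.19 (adjusted p = 0.495, limma). Over all alternatives these ran from 0.12 to 0.20 and from -0.25 to -0.13. The separation of miR-24-3p depends on the scaling. With median-of-ratios factors, OO replicate 3 (factor 1.10) falls within the CC range of that arm.

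These opposite values of the miR-24 arms showed in the 5p share of miR-24 reads, pooled over both hairpins. That share does not depend on how a library is scaled. The miR-24-3p row comes from both hairpins, so changed arm use and a shift between the clusters cannot be told apart in it. The 5p share of miR-24 reads was 27.1, 27.8 and 27.6% in OO livers, 29.7, 27.3 and 26.2% in CO livers and 27.7, 29.8 and 29.6% in OC livers, against 34.3, 33.0 and 31.1% in CC livers. Each group with an obesogenic diet in either generation lay below CC without overlap, while those 3 groups overlapped one another. The means were 27.5% ± 0.361 in OO, 27.8% ± 1.80 in CO and 29.0% ± 1.15 in OC livers, against 32.8% ± 1.62 in CC livers (SD, n = 3 each). The share was chosen for description after its values were seen and was not tested, and 3 libraries against 3 cannot give an exact two-sided permutation p under 0.1. All 3 differences share the CC libraries.

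The ratio of the miR-27 paralogues was higher in CO than in CC livers without overlap, again as a description with no test. miR-27b-3p over miR-27a-3p was 27.9, 27.9 and 32.9 in CO livers, against 21.2, 23.7 and 22.7 in CC livers. The means were 29.6 ± 2.90 in CO and 22.5 ± 1.29 in CC livers (SD, n = 3 each). In OO livers the ratio was 24.4, 22.1 and 28.8, and in OC livers 22.7, 25.5 and 24.7, which overlap each other and CC. The OO livers also overlapped the CO livers. For miR-23b-3p over miR-23a-3p the values were 2.60, 2.42 and 2.82 in OO livers and 2.89, 3.22 and 3.03 in CO livers, without overlap, and every other pair of groups overlapped.

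**Figure D4:**
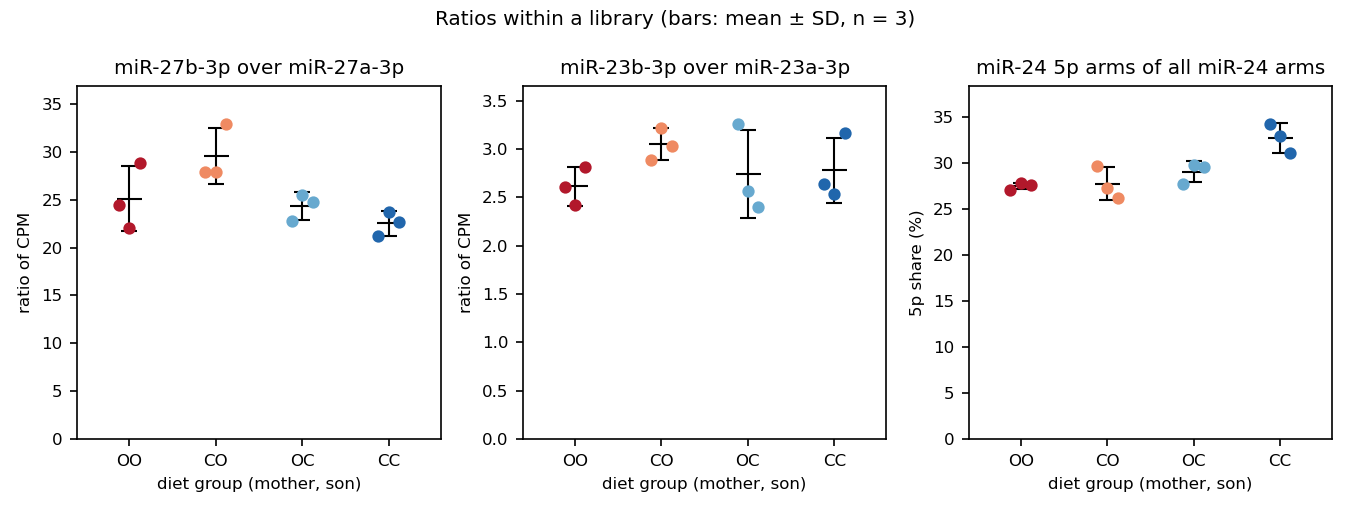
Ratios within each library for OO, CO, OC and CC livers (points are libraries, bars the mean ± SD of 3): miR-27b-3p over miR-27a-3p, miR-23b-3p over miR-23a-3p, and the 5p arms as a percentage of all miR-24 reads. The first was highest on average in CO livers (27.9 to 32.9), which overlapped OO livers (22.1 to 28.8). The last was highest in CC livers (31.1 to 34.3%), without overlap with the other groups.

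The reads that tell miR-27a-3p from miR-27b-3p depend on 1 base near the 3′ end, and the rule for mismatched or shared reads is not given in the sources used here, so the split between these rows is uncertain. Summed, the pair with the seed UCACAGU averaged 26469 ± 1724 CPM (SD, n = 12). The sum differed by 0.08 on the log2 scale for the son's diet (adjusted p = 0.604) and by 0.11 between CO and CC livers (adjusted p = 0.576, limma), with the sign of miR-27b-3p. For the summed miR-23 3p arms the log2 difference between CO and CC livers was -0.20 (adjusted p = 0.576, limma).

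Hairpins of a cluster share a primary transcript, so the 5 main 3p arms were also compared over the 12 libraries, in 10 pairs with p-values adjusted over the 10. The single pair that passed was miR-27a-3p with miR-23a-3p, both of the a cluster. On the CPM scale their log2 levels had a Pearson r of 0.89 (permutation p = 9e-05, adjusted 0.0009) and a Spearman rho of 0.89 (permutation p = 0.0003, adjusted 0.003). Without CC replicate 1 and CO replicate 3, the libraries farthest from the median, r was 0.79. As deviations from the group means r was also 0.79 (adjusted permutation p = 0.0099). The permutations shuffled all 12 deviations freely, although centring makes the values of a group depend on one another. The p-values of deviations can therefore be too small. After median-of-ratios scaling r was 0.76 (adjusted permutation p = 0.0149). The rank relation did not pass after that scaling, with a rho of 0.59 (adjusted permutation p = 0.231), and r without CO replicate 3 and OO replicate 3 was then 0.58. Some rows outside the clusters followed each of these arms more closely than the arms followed each other, as given below.

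The corresponding pair of the b cluster, miR-27b-3p with miR-23b-3p, had a Pearson r of -0.13 (permutation p = 0.684, adjusted 0.855) and a Spearman rho of -0.21. Without CO replicate 1 and OO replicate 3 its r was -0.10. The paralogues miR-23b-3p and miR-23a-3p had an r of 0.67 (permutation p = 0.0169, adjusted 0.0845) and a rho of 0.68, and an r of 0.59 without CC replicate 3 and OC replicate 1.

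miR-27b-3p with miR-27a-3p had an r of -0.04 (permutation p = 0.915) and a rho of -0.66 (permutation p = 0.024, adjusted 0.08). That r rested on CO replicate 3, the lowest library for miR-27a-3p, while for miR-27b-3p 3 of the 11 other libraries were lower. Without CO replicate 3 r was -0.75 (adjusted permutation p = 0.0404). As deviations from the group means r was 0.36. Levels of different rows are shares of the same reads, and the libraries also differ by diet.

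**Figure D5:**
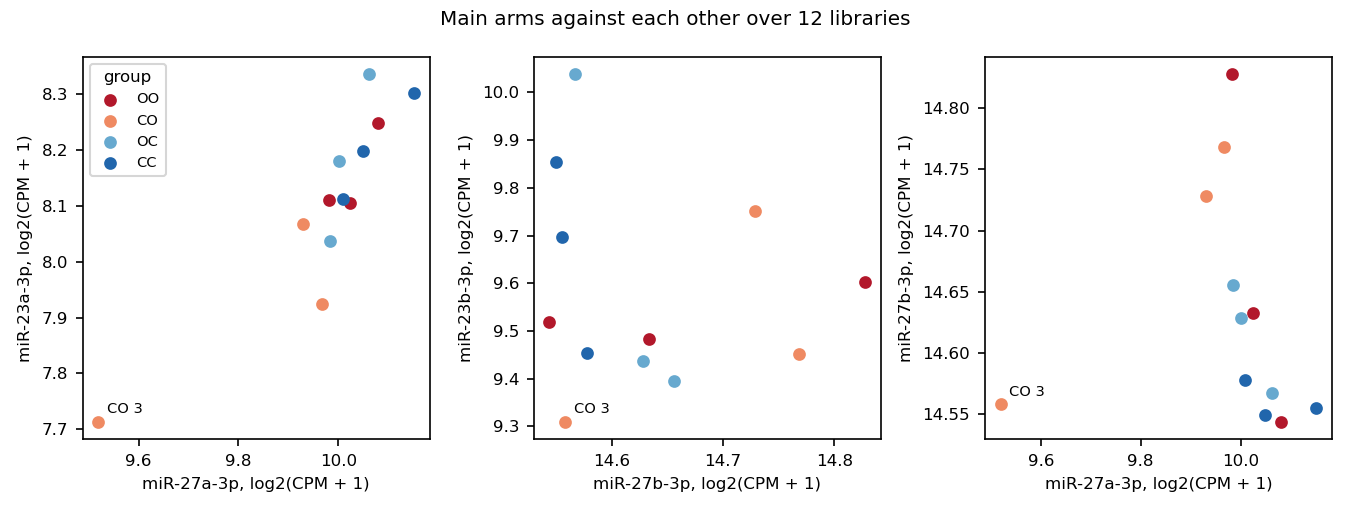
Log2(CPM + 1) of main arms against each other over 12 libraries (points, coloured by OO, CO, OC and CC; CO replicate 3 is marked). miR-27a-3p and miR-23a-3p varied together (r = 0.89), miR-27b-3p and miR-23b-3p did not (r = -0.13), and in the panel of miR-27b-3p against miR-27a-3p CO replicate 3 lies apart from the other 11 libraries.

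Rows outside the clusters that followed each main arm most closely are given as a description, by Pearson r of log2(CPM + 1) over the 12 libraries. For miR-27a-3p they were miR-29a-3p (0.98), miR-29a-5p (0.98) and miR-29c-3p (0.98), and without CO replicate 3 these values were 0.83, 0.84 and 0.82. For miR-23a-3p they were miR-26b-5p (0.95), miR-26a-5p (0.94) and miR-17-5p (0.93), or 0.91, 0.88 and 0.83 without that library. The median r over all other rows was 0.27 for miR-27a-3p and 0.29 for miR-23a-3p. Over the 12 libraries miR-27a-3p and miR-23a-3p had an r of 0.89 with each other, below that of each row named here. A close relation was thus not particular to the cluster. These pairs share library, depth and scale.

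For miR-27b-3p the closest rows were miR-222-3p (0.85), miR-140-3p (0.84) and miR-365-3p (0.83), against a median of 0.10 over all other rows. miR-23b-3p was closest to miR-338-5p (0.86), miR-30b-3p (0.86) and miR-145b (0.79), and miR-24-3p to miR-324-5p (0.89), miR-652-3p (0.79) and let-7b-5p (0.70). None of these rows appeared under more than 1 arm, but with 3 rows listed per arm, rows shared further down are not seen. After median-of-ratios scaling the values were 0.66, 0.71 and 0.65 for miR-27b-3p. They were then 0.84, 0.80 and 0.67 for miR-23b-3p and 0.64, 0.66 and 0.55 for miR-24-3p. Some neighbours were low rows, with miR-338-5p at 5.85, miR-145b at 5.58 and miR-324-5p at 6.03 CPM.

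Other microRNAs with known roles in the liver gave few calls in the same fit. Of 22 measured microRNAs on a list for lipid and cholesterol metabolism, 1 fell with the son's obesogenic diet and in OO against OC livers, miR-182-5p, and 21 did not pass, with a median log2 difference of 0.00 for the son's diet. None of 18 on a list for TGF-beta signalling and fibrosis passed in any of the 8 contrasts. On the list of biliary and other epithelial microRNAs, with 8 measured, miR-31-5p fell with the son's diet and in CO against CC livers. The log2 difference for the son's diet was -0.98 for miR-182-5p and -0.43 for miR-31-5p, each with an adjusted p of 0.00743 (limma). None of the hepatocyte, endothelial, leukocyte, erythroid, stellate and mesenchymal, or muscle, pancreas and brain lists had a member that passed.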

How the data were processed

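Small RNA from 12 livers was sequenced after TruSeq small RNA library preparation, per the labels' protocols, and the reads went through Bowtie 1.2.3, per the submitters' processing notes. Which build and microRNA reference were used, and how reads matching several microRNAs were treated, is not given in the sources used here. Deposited values are in CPM per mature microRNA, as the authors computed them. All values were whole multiples of 1 read's worth (tolerance 0.001 reads), from which the depth of each library was inferred, 5.45 to 22.2 in units of 1000000 reads. Column sums lay 0.866 to 1.17% above 1000000.

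Rows were tested with limma 3.58.1 (R 4.3.3) on log2(CPM + 1) with the trend option, fitting the 4 group means over all 12 libraries and reading 8 contrasts. Adjustment was by Benjamini-Hochberg over 386 rows, and an adjusted p under 0.05 passed. The fit was run on simulated data with changes larger than any member difference here, so that run does not show whether differences of this size would be found. Relations used 100000 permutations drawn with numpy 2.4.6, with ranks from scipy 1.17.1. Fold changes understate the change of low rows because of the added 1. Named were all members, the 3 rows closest to each main arm, and list members that passed. The members and lists were chosen with earlier results of these data known. Alternatives were pseudocounts of 0.25 and 5, a filter at 10 CPM, median-of-ratios and TMM scaling, depth as a covariate, fits of 2 groups alone, summed near-identical rows, and leaving out each library. Replicate numbers follow the order of the samples and pair nothing. Sequences and loci come from RefSeq and GENCODE on GRCm38.p6.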

Additional observations from a re-analysis of the deposited data

How the results depend on the processing

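In all alternatives run, 0 of 9 members were called in any of the 8 contrasts. Of 1357 alternative values for the 72 member differences, 32 moved beyond the spread between replicates, 125 had the other sign, and the lowest adjusted p was 0.0776 (limma), in CO against CC. These numbers include the paralogue sums, each set against either of its arms, and the miR-27 sum is mostly miR-27b-3p. Counts of rows called over the whole table changed more, and the cause was not tested. For the son's diet (3 rows) they were 8 with median-of-ratios factors, 8 with TMM factors and 3 to 5 with 1 library left out. For CO against CC (3) they were 10 with depth as a covariate, 1 with only these groups fitted and 1 to 4 with 1 library left out. For OO against OC (2) they were 1 with depth, 1 with only these groups and 0 to 2 with 1 library left out. The mother's diet (0) and the interaction (0) had 1 each with depth. For OO against CO (0) the count was 0 to 2 with 1 library left out. OO against CC (1) had 2 with the 10 CPM filter, either scaling or depth, and 1 to 3 with 1 library left out.

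Among the relations, the r of miR-27b-3p with miR-23a-3p (-0.28) was -0.88 after median-of-ratios scaling (adjusted permutation p = 0.0025), 0.0086 as deviations from the group means, and -0.71 to -0.15 with 1 library left out, the lowest without CO replicate 3. miR-27a-3p with miR-24-3p (0.04) was -0.44 after scaling, -0.028 as deviations and -0.067 to 0.21 with 1 left out. miR-23a-3p with miR-24-3p was -0.0094 after scaling. As deviations, miR-27b-3p had an r of 0.36 with miR-27a-3p and 0.045 with miR-23b-3p, and miR-23b-3p one of 0.77 with miR-23a-3p (adjusted permutation p = 0.0162). As deviations, miR-27b-3p with miR-24-3p had an r of -0.56 (adjusted permutation p = 0.11) and a rho of -0.74 (adjusted permutation p = 0.0248), against -0.18 and -0.22 without centring. The p-values of deviations can be too small, because centring makes the values of a group depend on one another. With 1 library left out, miR-27b-3p with miR-27a-3p ranged from -0.75 to 0.053 (0.053 without CC replicate 1, 0.02 without OO replicate 2) and with miR-23b-3p from -0.26 to 0.02. Leaving out libraries was added for relations, ratios and closest rows after the data were seen.

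The planned count-model alternatives (edgeR and DESeq2) were not run, because the smallest value of most libraries stood for several inferred reads. Depths and read numbers are therefore given as inferred. No paired analysis was possible because no label pairs mice across groups by number. OO replicate 3 has the same number in its name as OC replicate 2, of unstated meaning, and 1 such pair allows no block.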
